A study of Rattus norvegicus with 372 samples.

Results

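Diclofenac at 400 µM was compared with its vehicle in primary rat hepatocytes by TempO-Seq, an assay that joins neighbouring detector oligos on their transcript by ligation, so that each read counts a joined probe. The wells were those labelled diclofenac, 400 µM, in batch 1 or batch 2, 3 wells per batch and 6 in all. The cells came from male Wistar rats, were kept between layers of collagen on 96-well plates and were exposed for 24 h, and diclofenac and vehicle wells all received 0.5% DMSO. Each batch was prepared from 1 rat, so its wells repeat the culture of a single animal, and biological replication rests on the 2 batches. There were 3 vehicle wells in batch 1 and 6 in batch 2, and the lower concentration, 16 µM, also had 3 wells per batch. In batch 2, 3 of the vehicle wells shared plate 2 with the diclofenac wells and the others were on plate 3. Wells with culture medium only, 3 in batch 1 and 6 in batch 2, for which the labels name no chemical or DMSO, served as an alternative control, and since they differed from vehicle in 1285 of 10191 genes, a call lost against them cannot be told apart from an effect of the solvent. The lysate of every well was read by the WT assay, for the whole transcriptome, and by the ST assay, for a smaller set of surrogate genes, which gave 12 diclofenac libraries of 372 in all. All cells were plated after isolation and grew in a medium with insulin, dexamethasone and EGF, which vehicle and treated wells shared.

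Diclofenac is a nonsteroidal anti-inflammatory drug that inhibits the cyclooxygenases and can injure the liver. Hepatocytes clear it through cytochrome P450 enzymes and by glucuronidation. When the endoplasmic reticulum (ER), the respiratory chain or the amino acid supply of a cell is disturbed, kinases phosphorylate the translation factor eIF2 alpha, general protein synthesis slows, and the transcription factor ATF4 and its partner CHOP, encoded by Ddit3, raise a set of stress genes. This is the integrated stress response. The functions that mark a hepatocyte, such as secretion of plasma proteins, urea synthesis and drug metabolism, are held up by nuclear receptors and liver transcription factors such as HNF4A.

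The WT libraries held 5729896 to 6200321 reads in the diclofenac wells of batch 1 and 6251486 to 7266074 in those of batch 2, against 5492941 to 8264980 and 5788931 to 7199877 in the vehicle wells. Pearson's r of log2(CPM + 1) between diclofenac wells was 0.983 to 0.990 in batch 1 and 0.988 to 0.993 in batch 2, and between diclofenac and vehicle wells it was 0.875 to 0.908 and 0.869 to 0.879. Of the 10191 genes tested, 7310 (71.7%) differed from vehicle at an adjusted p under 0.05 by edgeR, of which 3664 (36.0% of the genes tested) were higher and 3646 (35.8%) were lower. In the fits of both batches by themselves and together, 5067 genes (49.7%) passed with the same sign, and for 5051 (49.6%) the diclofenac wells lay beyond all vehicle wells on the same side in each batch. The median log2 fold change (L2FC) over all genes tested was 0.01, but large changes were more often decreases: 165 genes were higher and 789 lower by at least 2 on the log2 scale. Scaled by total counts alone, the median moved to 0.15 and 57.8% of calls were higher in place of 50.1%. A share of members called near 71.7%, or near 36.0% in 1 direction, is therefore no more than that of the table as a whole. L2FC compare 6 diclofenac with 9 vehicle wells and are given with the SE of that contrast. The fit covered all wells of the assay, so the SE does not measure the spread of these wells alone. Levels are CPM of the WT assay, counts scaled to the same library size. Adjusted p are those of edgeR's quasi-likelihood test. Levels of different genes are not compared, because each probe has its own efficiency.

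The label hepatocyte was checked against marker genes. All 7 hepatocyte markers were detected and all 7 fell. Their summed level was 27063 to 31737 CPM in the vehicle wells of batch 1 and 29702 to 35591 CPM in those of batch 2, and 5163 to 6915 and 5050 to 6594 CPM in the diclofenac wells. The summed markers of other liver cells did not exceed their highest vehicle level in any diclofenac well. Summed markers of Kupffer cells and leukocytes (8 of 9 in the table, 5 tested, 1 higher and 4 lower) went from 27.2 to 48.4 CPM in vehicle to 17.5 to 28.9 CPM. Markers of cholangiocytes went from 32.5 to 45.9 CPM to 3.92 to 8.44 CPM (2 tested, Epcam and Sox9, both lower), with Krt7 at 0 in all 15 wells. Endothelial markers stayed at 0.715 to 3.58 CPM with none tested. Stellate markers went from 202 to 287 CPM to 44.2 to 80.1 CPM. Reln made up nearly all of this sum, at 201 to 287 CPM and 44.0 to 79.9 CPM. It was the only one tested, and it fell (L2FC -1.97 ± 0.12, adjusted p = 9.38e-34). In a lysate, fewer cells of a type and less RNA per cell cannot be told apart.

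Among the gene lists, the integrated stress response had the highest median. Of 28 tested genes, 22 rose, 5 fell and 1 did not pass, with a median L2FC of 1.44. Ddit3, which encodes the transcription factor CHOP, rose 78.8-fold (L2FC 6.30 ± 0.18, adjusted p = 1.76e-73), and Ppp1r15a, which encodes the subunit GADD34 that directs a phosphatase to eIF2 alpha, rose 9.23-fold (L2FC 3.21 ± 0.11). Atf4, the gene of ATF4 itself, rose by less (L2FC 1.44 ± 0.07). Asns, for asparagine synthetase and also an ATF4 target, did not pass the test (L2FC 0.29 ± 0.28, adjusted p = 0.347), but was called higher by the ST assay (0.64, adjusted p = 0.0141) and in a WT fit of the diclofenac 400 µM and vehicle wells only (0.31, adjusted p = 0.0468). Promoters of 23 of the 28 genes could be matched to RefSeq, and 5 of these 23 (21.7%) held TGATGNAAN on either strand, the pattern of the C/EBP-ATF response element bound by ATF4 with a C/EBP partner, beside 1328 of all 33469 promoters of 300 bases (3.97%). A match describes letters in this window and not a bound site. The 250 bases before the start of these 5 genes are printed because all 5 rose with Ddit3, in lower case with the match in capitals, from RefSeq on GRCr8, 5′ to 3′ along the gene. The pattern starts 22 bases before the start of Trib3 (chr3:161275534-161275783, minus strand), 144 before that of Fgf21 (chr1:105221377-105221626, minus strand), 131 before that of Pycr1 (chr10:106420813-106421062, minus strand), 168 before that of Chac1 (chr3:126795881-126796130, plus strand) and 30 before that of Slc7a1 (chr12:11664238-11664487, plus strand).
Trib3: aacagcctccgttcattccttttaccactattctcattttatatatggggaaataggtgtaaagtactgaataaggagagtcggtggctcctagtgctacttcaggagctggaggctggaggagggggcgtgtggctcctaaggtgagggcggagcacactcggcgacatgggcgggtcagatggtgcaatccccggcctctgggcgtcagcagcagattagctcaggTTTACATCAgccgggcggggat
Fgf21: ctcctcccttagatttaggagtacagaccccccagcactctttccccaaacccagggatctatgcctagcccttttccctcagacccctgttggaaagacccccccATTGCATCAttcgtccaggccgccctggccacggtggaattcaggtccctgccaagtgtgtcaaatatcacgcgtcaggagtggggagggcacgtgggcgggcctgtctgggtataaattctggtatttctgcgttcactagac
Pycr1: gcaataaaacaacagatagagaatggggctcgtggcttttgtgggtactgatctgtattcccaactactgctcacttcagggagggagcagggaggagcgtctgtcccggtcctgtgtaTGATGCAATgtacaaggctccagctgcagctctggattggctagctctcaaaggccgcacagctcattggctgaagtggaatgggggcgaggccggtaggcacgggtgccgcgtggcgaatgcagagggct
Chac1: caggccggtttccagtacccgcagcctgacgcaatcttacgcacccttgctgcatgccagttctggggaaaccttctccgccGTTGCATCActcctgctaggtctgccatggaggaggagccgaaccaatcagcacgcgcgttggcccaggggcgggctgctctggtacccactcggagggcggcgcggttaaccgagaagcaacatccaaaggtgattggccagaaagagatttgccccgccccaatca
Slc7a1: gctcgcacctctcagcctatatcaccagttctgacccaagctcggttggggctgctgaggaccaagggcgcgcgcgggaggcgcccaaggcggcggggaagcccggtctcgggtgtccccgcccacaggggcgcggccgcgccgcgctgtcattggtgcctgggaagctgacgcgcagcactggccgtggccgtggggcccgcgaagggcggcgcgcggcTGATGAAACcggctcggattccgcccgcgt

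By well, Ddit3 read 23.4, 25.7 and 29.3 CPM in the vehicle wells of batch 1 and 2671, 2252 and 2330.4 CPM in its diclofenac wells, and 20.7 to 29.2 CPM (median 27) in the vehicle wells of batch 2 and 1537, 1592 and 1655 CPM in its diclofenac wells. Every diclofenac well lay far above every vehicle well. Trib3, a pseudokinase that CHOP and ATF4 induce, read 81.7, 79.8 and 77.9 CPM in the vehicle wells of batch 1 and 476, 405 and 463 CPM in its diclofenac wells, and 45.1 to 61.3 CPM (median 52.9) in the vehicle wells of batch 2 and 373, 352 and 347 CPM in its diclofenac wells. Its groups did not overlap in either batch (L2FC 2.66 ± 0.15, adjusted p = 1.36e-37). Fgf21, a hormone that the liver secretes in fasting and stress, read 44.7, 59.1 and 33.1 CPM in the vehicle wells of batch 1 and 217, 241 and 237 CPM in its diclofenac wells, and 26.3 to 50.0 CPM (median 37.3) in the vehicle wells of batch 2 and 185, 242 and 276 CPM in its diclofenac wells. These groups were also apart (L2FC 2.49 ± 0.20). Chac1, which degrades glutathione, rose less, with 25.7, 22.7 and 21.3 CPM in the vehicle wells of batch 1 and 38.2, 34.9 and 38.2 CPM in its diclofenac wells, and 14.3 to 22.9 CPM (median 17.6) in the vehicle wells of batch 2 and 56.2, 55.8 and 55.6 CPM in its diclofenac wells. It did so in both batches, and more in batch 2 (L2FC 0.73 and 1.62, adjusted p of the difference = 0.0174). Pycr1, an enzyme of proline synthesis, had L2FC 1.39 ± 0.15, and the amino acid transporters Slc7a1 and Slc7a5 had L2FC 1.68 ± 0.14 and L2FC 2.18 ± 0.20. Stc2 (L2FC 2.90 ± 0.29), Atf3 (L2FC 2.66 ± 0.21) and Gdf15 (L2FC 1.95 ± 0.14), which encode a secreted glycoprotein, a transcription factor and a stress cytokine, rose as well. The 5 members that fell were Cth (-2.11), Psat1 (-0.76), Atf5 (-0.54), Ddit4 (-0.54) and Phgdh (-0.52), of which Phgdh and Psat1 are enzymes of serine synthesis and Cth makes cysteine. Phgdh did not pass in either batch by itself, and Ddit4 did not in batch 1 (-0.09, adjusted p = 0.666). By the ST assay Cth and Psat1 were called lower, and Atf5 (adjusted p = 0.0910), Ddit4 (0.0656) and Phgdh (0.0508) were not.

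**Figure D1:**
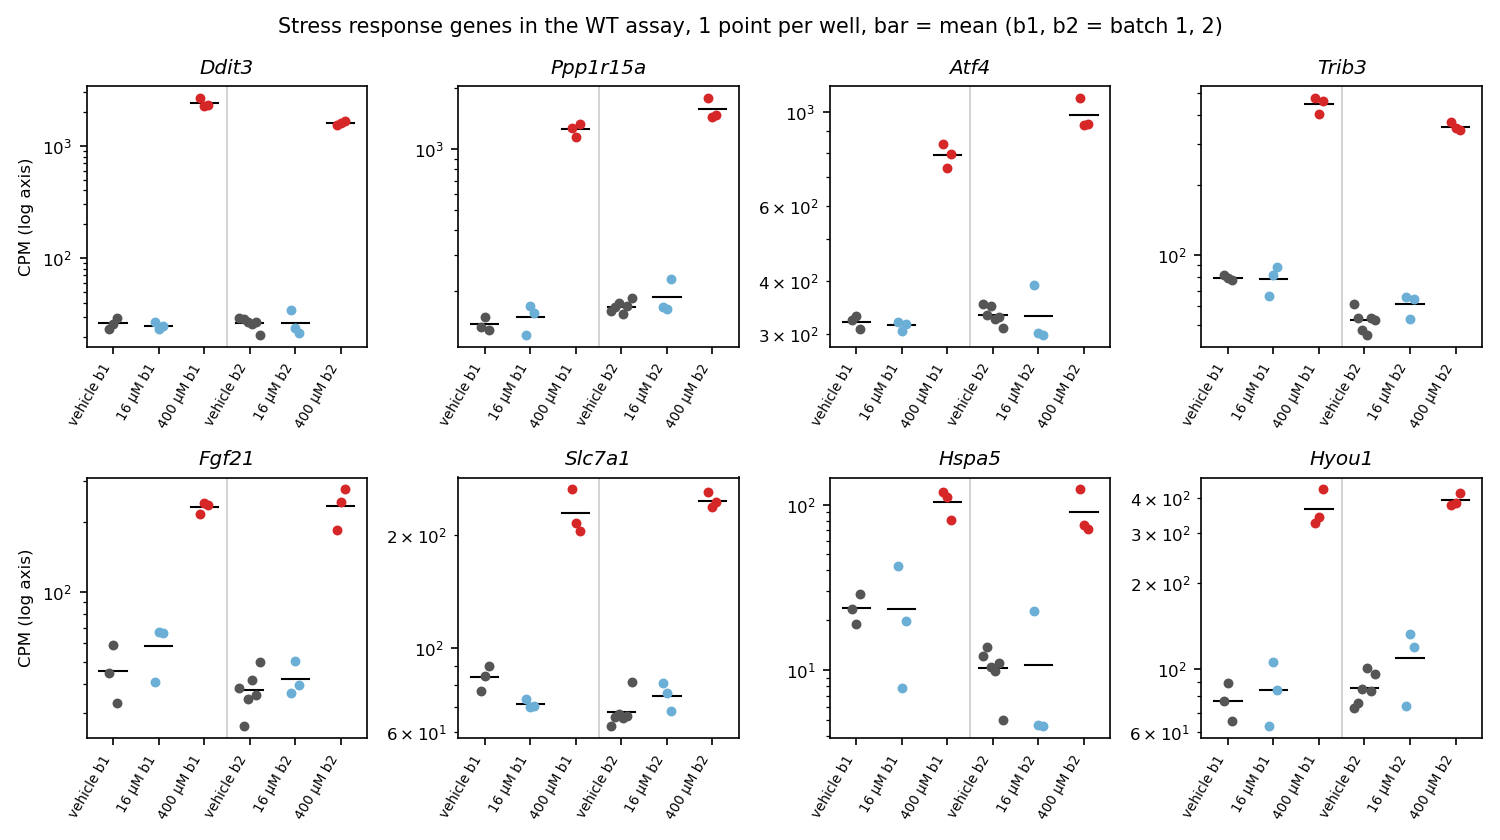
Levels of 8 stress genes by well in the WT assay, in CPM on a log axis, for vehicle, 16 µM and 400 µM diclofenac in batch 1 and batch 2, with 1 point per well and a bar at the mean. The 400 µM wells of Ddit3 sit between 1537 and 2671 CPM and the vehicle wells between 20.7 and 29.3 CPM.

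ER chaperones and genes of the unfolded protein response rose with them. Of 19 tested genes, 15 rose, 1 fell and 3 did not pass, with a median L2FC of 1.41. Hspa5, the ER chaperone BiP, read 23.5, 19.1 and 28.8 CPM in the vehicle wells of batch 1 and 119.5, 111 and 80.7 CPM in its diclofenac wells, and 5.00 to 13.7 CPM (median 10.7) in the vehicle wells of batch 2 and 124, 75.2 and 71.6 CPM in its diclofenac wells. No diclofenac well overlapped vehicle (L2FC 2.69 ± 0.32, 6.45-fold, adjusted p = 7.08e-14). Creld2 (L2FC 2.84 ± 0.13) and the chaperone Hyou1 (L2FC 2.25 ± 0.16) rose by similar steps, and Herpud1, which takes part in the removal of misfolded ER proteins, went from a mean of 627 ± 119 to 2654 ± 154 CPM (SD, n = 3 and 3) in batch 1 and from 543 ± 102 to 2622 ± 37.4 CPM (SD, n = 6 and 3) in batch 2. Edem1, which directs misfolded glycoproteins to degradation, was the only member that fell (L2FC -1.62 ± 0.13, adjusted p = 3.78e-24). Xbp1 had L2FC 0.07 (adjusted p = 0.772). The probe counts a gene's transcripts and does not tell spliced from unspliced Xbp1.

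Genes for making ribosomes rose almost without exception. Of 23 tested genes, 22 rose, 1 fell and 0 did not pass, with a median L2FC of 1.23. The rRNA processing factor Rrp12 had L2FC 2.76 ± 0.13 (adjusted p = 1.45e-45) and nucleolin, Ncl, L2FC 1.87 ± 0.12, and Ebna1bp2 and Nhp2 had L2FC 1.68 ± 0.08 and L2FC 1.68 ± 0.14. The member that fell was Polr1a, the largest subunit of RNA polymerase I (-0.41), which did not pass in either batch by itself. Heat shock genes, most of them cytosolic, were mostly higher (of 13 tested genes, 10 rose, 1 fell and 2 did not pass, with a median L2FC of 0.96), with Hspb1 at L2FC 1.83 ± 0.13, Dnajb1 at L2FC 1.15 ± 0.13, the mitochondrial co-chaperonin Hspe1, which is on this list too, at L2FC 1.34 ± 0.17, and Cryab in the opposite direction at L2FC -2.08 ± 0.19. Of the mitochondrial stress list, 12 of 25 genes rose and 3 fell. Lonp1, a protease of the mitochondrial matrix (L2FC 1.59 ± 0.14), Hspa9, a mitochondrial chaperone (L2FC 1.48 ± 0.11), and Bnip3, a mitophagy receptor (L2FC 1.16 ± 0.18), were the largest besides Hspe1. Subunits of the respiratory chain went the other way by small amounts (of 43 tested genes, 2 rose, 27 fell and 14 did not pass, with a median L2FC of -0.36), with Ndufs8 at L2FC -1.06 ± 0.07, Ndufa2 at L2FC -0.95 ± 0.08 and the ATP synthase subunit Atp5f1a at L2FC -0.93 ± 0.09. Of 23 proteasome subunits 6 rose, none fell and 17 did not pass. Psmd4 changed most (L2FC 0.98 ± 0.07).

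Lysosome and autophagy genes were split (of 31 tested genes, 15 rose, 6 fell and 10 did not pass, with a median L2FC of 0.19). Gpnmb (L2FC 1.58 ± 0.18), Ctsa (L2FC 1.38 ± 0.26) and the autophagy receptor Sqstm1 (L2FC 1.33 ± 0.12) rose and the cathepsin Ctsh fell (L2FC -2.52 ± 0.13). Of 20 p53 targets, 11 rose and 8 fell. Gadd45a had L2FC 2.03 ± 0.13, Mdm2, the ligase that degrades p53, L2FC 1.59 ± 0.13, and Cdkn1a, the cyclin-dependent kinase inhibitor p21, L2FC 1.43 ± 0.17. Pmaip1, the death-promoting BCL2 family member NOXA, rose at a low level (L2FC 1.87 ± 0.23), while the survival genes Bcl2a1 (L2FC -2.46 ± 0.33) and Birc5 (L2FC -1.70 ± 0.36) and the pro-apoptotic Bmf (L2FC -1.46 ± 0.20) fell. Within the BCL2 family and caspases 7 of 25 rose and 15 fell, among them Bcl2 (-1.41).

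**Figure D2:**
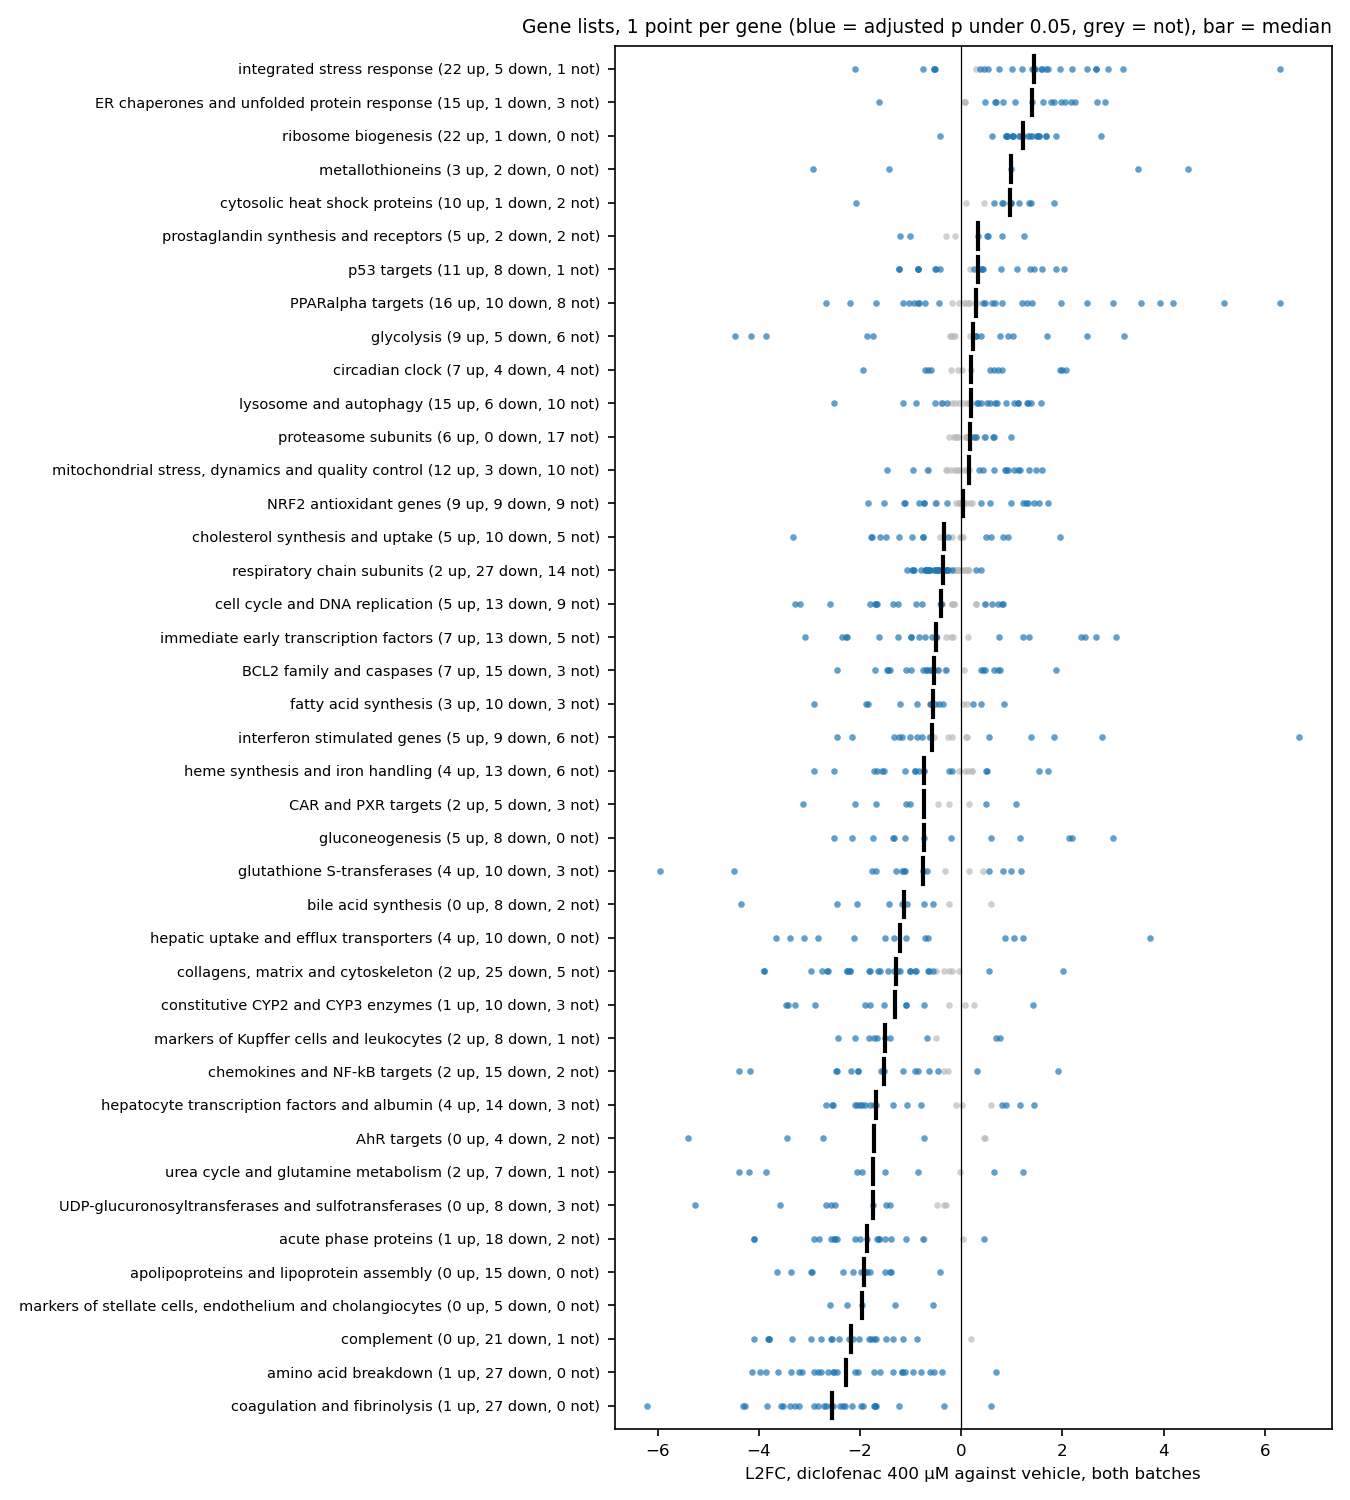
L2FC of the tested genes of each list in the WT assay, 1 point per gene, with lists ordered by their median. Lists of ribosome biogenesis and the stress responses lie to the right of 0 and those of coagulation, complement and amino acid breakdown to the left, with medians from -2.55 to 1.44.

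Genes of plasma proteins that hepatocytes secrete were lower in each of 4 lists. For coagulation and fibrinolysis, of 28 tested genes, 1 rose, 27 fell and 0 did not pass, with a median L2FC of -2.55. For complement the numbers were 0 higher and 21 lower of 22 with a median of -2.18, for apolipoproteins 0 higher and 15 lower of 15 (-1.92), and for acute phase proteins 1 higher and 18 lower of 21 (-1.85). Among all genes tested, 35.8% were lower. Serpind1, which encodes the thrombin inhibitor heparin cofactor II, read 224, 280.2 and 206 CPM in the vehicle wells of batch 1 and 1.10, 4.15 and 1.60 CPM in its diclofenac wells, and 68.8 to 90.1 CPM (median 85.0) in the vehicle wells of batch 2 and 1.80, 1.42 and 1.36 CPM in its diclofenac wells. It fell 73.8-fold (L2FC -6.21 ± 0.25, adjusted p = 7.36e-55), with no overlap in either batch. The fibrinogen alpha chain gene Fga read 6876, 8582 and 6536 CPM in the vehicle wells of batch 1 and 397, 528 and 569 CPM in its diclofenac wells, and 3186 to 4206 CPM (median 3849) in the vehicle wells of batch 2 and 489, 175 and 163 CPM in its diclofenac wells. The chains Fga (L2FC -3.84 ± 0.22), Fgb (L2FC -2.57 ± 0.19) and Fgg (L2FC -3.57 ± 0.17) fell in both batches. Serpinf2, the plasmin inhibitor, had L2FC -4.31 ± 0.25. Proz, protein Z, had at most 2 reads in any diclofenac well, and its pooled level was 23.4-fold lower (exact binomial 95% interval 7.78 to 115, counting error only). Plaur, the urokinase receptor, was the member that rose (0.59, but -0.03 in batch 1), and in the acute phase list it was Saa4 (0.45), which did not pass with probes tested by themselves (0.19, adjusted p = 0.104).

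Albumin went down less than many of these. Alb read 12078, 11624 and 10332 CPM in the vehicle wells of batch 1 and 2896, 3538 and 3893 CPM in its diclofenac wells, and 12255 to 14278 CPM (median 13464) in the vehicle wells of batch 2 and 3055, 3006 and 2743 CPM in its diclofenac wells. The diclofenac wells of both batches lay below all vehicle wells (L2FC -2.01 ± 0.11, adjusted p = 2.29e-41), a 4.02-fold decrease. Apoa1, the main protein of HDL, read 11931, 12808 and 10055 CPM in the vehicle wells of batch 1 and 1263, 2009 and 1809 CPM in its diclofenac wells, and 9422 to 12476 CPM (median 11593) in the vehicle wells of batch 2 and 1585, 1354 and 1208 CPM in its diclofenac wells (L2FC -2.94 ± 0.13). Apoc2, the cofactor of lipoprotein lipase (L2FC -3.64 ± 0.24), Apof (L2FC -3.37 ± 0.41) and Apom (L2FC -2.96 ± 0.16) fell as well. Haptoglobin, Hp (L2FC -4.09 ± 0.22), transferrin, Tf (L2FC -2.90 ± 0.14), the retinol carrier Rbp4 (L2FC -2.80 ± 0.17) and the interleukin 1 antagonist Il1rn (L2FC -4.10 ± 0.20) were lower. So were the mannose-binding lectins Mbl1 (L2FC -4.10 ± 0.18) and Mbl2 (L2FC -3.80 ± 0.12) and both chains of the C4b-binding protein, C4bpa (L2FC -3.81 ± 0.18) and C4bpb (L2FC -3.79 ± 0.25).

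The list of hepatocyte transcription factors, which also holds albumin and another plasma protein, was mostly lower. Of 21 tested genes, 4 rose, 14 fell and 3 did not pass, with a median L2FC of -1.68. Hnf4a, a nuclear receptor that maintains hepatocyte gene expression, read 198, 223 and 170.0 CPM in the vehicle wells of batch 1 and 35.6, 69.9 and 59.1 CPM in its diclofenac wells, and 146 to 226 CPM (median 185) in the vehicle wells of batch 2 and 51.1, 40.5 and 45.2 CPM in its diclofenac wells. Its groups did not overlap (L2FC -1.91 ± 0.14, adjusted p = 8.38e-29). Prox1 (L2FC -2.53 ± 0.10), the fatty acid sensor Ppara (L2FC -2.68 ± 0.25), Nr5a2 (-2.05) and the xenobiotic receptors CAR, Nr1i3 (L2FC -2.11 ± 0.26), and PXR, Nr1i2 (-1.68), fell too. The C/EBP factors went up, Cebpa by L2FC 1.17 ± 0.12 and Cebpb by L2FC 1.44 ± 0.11, and so did Esrra (0.88) and Nr1h2 (0.80).

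**Figure D3:**
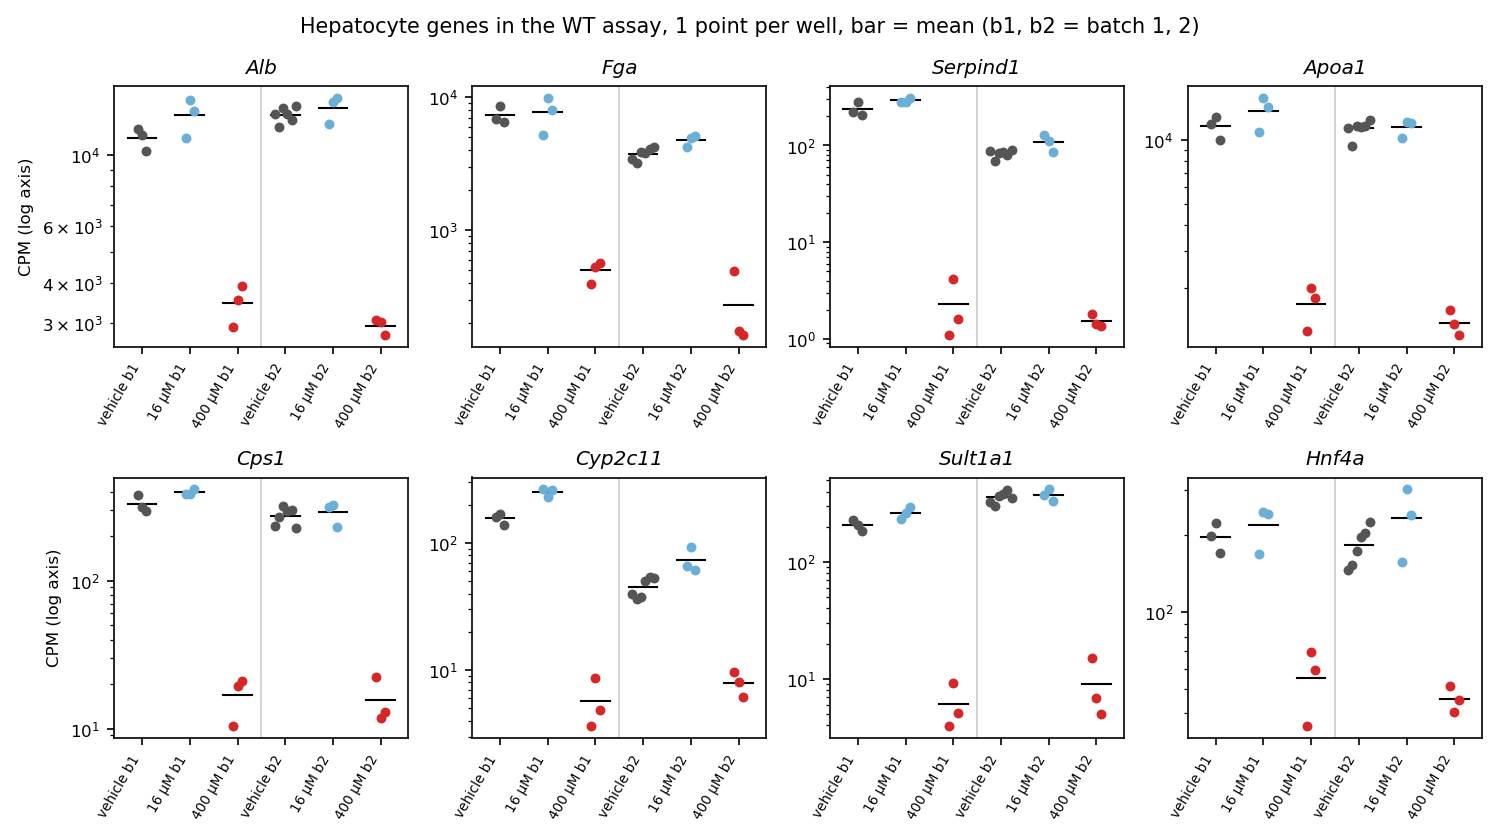
Levels of 8 hepatocyte genes by well in the WT assay, in CPM on a log axis, for vehicle, 16 µM and 400 µM diclofenac in both batches, with 1 point per well and a bar at the mean. The 400 µM wells lie below all vehicle and 16 µM wells in each panel and batch, while vehicle levels of Serpind1, Fga and Cyp2c11 differ between the rats.

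Breakdown of amino acids and nitrogen disposal were affected nearly throughout. Of 28 tested genes, 1 rose, 27 fell and 0 did not pass, with a median L2FC of -2.28. Uroc1, of histidine breakdown, had L2FC -4.13 ± 0.32, Bhmt, which remethylates homocysteine with betaine, L2FC -3.98 ± 0.31, and Dmgdh L2FC -3.62 ± 0.19. Bckdha, of branched-chain amino acid breakdown, was the member that rose (0.70). In the urea cycle list 2 rose and 7 fell of 10. Cps1, which makes the carbamoyl phosphate that enters the cycle, read 377, 315 and 293 CPM in the vehicle wells of batch 1 and 10.3, 19.3 and 20.9 CPM in its diclofenac wells, and 225 to 322 CPM (median 284) in the vehicle wells of batch 2 and 22.2, 11.8 and 12.9 CPM in its diclofenac wells. It was lower in all diclofenac wells of both batches (18.3-fold, L2FC -4.20 ± 0.20, adjusted p = 2.18e-46). Otc (L2FC -4.40 ± 0.26) and Nags (L2FC -2.06 ± 0.18) fell with it, whereas Oat (1.22) and Asl (0.65) rose, the latter not against culture medium (0.04, adjusted p = 0.781). Of the purine and pyrimidine enzymes, urate oxidase, Uox, went from 6668 ± 589 to 252 ± 57.8 CPM (SD, n = 3 and 3) in batch 1 and from 6581 ± 507 to 174 ± 58.0 CPM (SD, n = 6 and 3) in batch 2. This was among the 12 largest decreases (L2FC -5.06 ± 0.25), as was that of dihydropyrimidinase, Dpys (L2FC -5.12 ± 0.24).

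Constitutive P450 genes of the CYP2 and CYP3 families were mainly lower. Of 14 tested genes, 1 rose, 10 fell and 3 did not pass, with a median L2FC of -1.30. Cyp2c11, the male-specific P450 of rat liver, read 161, 169 and 138 CPM in the vehicle wells of batch 1 and 3.60, 8.73 and 4.81 CPM in its diclofenac wells, and 36.2 to 53.9 CPM (median 45.1) in the vehicle wells of batch 2 and 9.60, 8.05 and 6.12 CPM in its diclofenac wells. All diclofenac wells were under 10 CPM in both batches, and the change was smaller in batch 2, where vehicle was lower (L2FC -4.70 and -2.47, adjusted p of the difference = 1.20e-06). Cyp2d1 (L2FC -3.43 ± 0.17), Cyp2c24 (L2FC -3.28 ± 0.36) and Cyp2d2 (L2FC -2.90 ± 0.23) fell, and Cyp2c6v1 fell by less (L2FC -1.09 ± 0.30, adjusted p = 6.75e-04) and overlapped vehicle in batch 2. By the ST assay Cyp2c6v1 did not pass (-0.64, adjusted p = 0.0883) and Cyp2d1 fell by less (-1.22). Cyp2u1 was the member that rose (L2FC 1.42 ± 0.13). Reads from probes to close family members were not separated further, and how far they share signal was not tested. Cyp3a2, read by the ST assay only, had L2FC -0.23 ± 0.28 (adjusted p = 0.454). Of 10 tested targets of CAR and PXR, 2 rose, 5 fell and 3 did not pass, whereas by the ST assay 4 of 11 rose and 3 fell. Cyp2b2 was called higher at 16 µM (1.40, adjusted p = 0.0416) and at 400 µM (L2FC 1.09 ± 0.35, adjusted p = 0.00304). At 400 µM this rests on the second diclofenac well of batch 1, without which it had 0.27 (adjusted p = 0.536), and it did not pass in batch 2 (0.29, adjusted p = 0.578). Of 6 tested targets of the aryl hydrocarbon receptor none rose, 4 fell and 2 did not pass, with Cyp1a1 at L2FC -3.45 ± 0.28, Cyp1a2 at L2FC -2.72 ± 0.21, Aldh3a1 at L2FC -5.39 ± 0.56 and Nqo1 at L2FC -0.73 ± 0.16 as those that fell. Cyp1b1 (L2FC 0.45 ± 0.50) and Tiparp (L2FC 0.46 ± 0.26) did not pass, although the ST assay called Tiparp higher (0.74, adjusted p = 0.00714). Of 11 conjugating enzymes none rose and 8 fell, led by the sulfotransferases Sult1a1 (L2FC -5.25 ± 0.24) and Sult1b1 (L2FC -3.58 ± 0.20) and the glucuronosyltransferases Ugt2a3 (L2FC -2.67 ± 0.16) and Ugt2b15 (L2FC -2.58 ± 0.16). Ugt2b1, the glucuronosyltransferase that acts on diclofenac in the rat, was read by the ST assay, where it fell (-1.31 ± 0.25, adjusted p = 9.59e-07). Its ST levels were 78.9, 111 and 90.8 CPM in the vehicle wells of batch 1 and 16.5, 72.2 and 26.6 CPM in its diclofenac wells, and 63.1 to 98.4 CPM (median 78.8) in the vehicle wells of batch 2 and 42.5, 18.9 and 27.5 CPM in its diclofenac wells. Each diclofenac well was below each vehicle well of its batch.

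Transporters moved in both directions. Of 14 tested genes, 4 rose, 10 fell and 0 did not pass, with a median L2FC of -1.22. Abcb4, which moves phosphatidylcholine into bile, read 1.08, 1.07 and 0.682 CPM in the vehicle wells of batch 1 and 15.0, 15.9 and 15.2 CPM in its diclofenac wells, and 0.550 to 2.00 CPM (median 0.937) in the vehicle wells of batch 2 and 10.3, 11.7 and 13.9 CPM in its diclofenac wells. Its groups did not overlap and it rose 13.3-fold (L2FC 3.73 ± 0.25, adjusted p = 2.41e-31). Abcc4 (1.23), Abcg2 (1.05) and Slc22a5 (0.86) were the others that rose. The uptake carriers Slco1a1 (L2FC -3.67 ± 0.28), Slc22a8 (L2FC -3.11 ± 0.16) and Slc10a1, the bile acid carrier NTCP (L2FC -2.82 ± 0.40), fell. Abcc6 had a pooled level 11.4-fold lower (exact binomial 95% interval 5.82 to 25.3). Abcc2 and Abcc3, which export conjugates to bile and to blood, changed little by comparison. Abcc2 fell in both batches (L2FC -0.72 ± 0.15), and Abcc3 had L2FC -0.00 in batch 1 and -1.14 in batch 2 (both batches L2FC -0.66 ± 0.16, adjusted p = 8.32e-05), and was not called by the ST assay (-0.25, adjusted p = 0.143).

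The drug's own targets were scarce. Ptgs1, cyclooxygenase 1, read 1.56, 3.39 and 2.22 CPM in the vehicle wells of batch 1 and 2.82, 2.72 and 2.89 CPM in its diclofenac wells, and 0.939 to 2.60 CPM (median 2.46) in the vehicle wells of batch 2 and 2.16, 1.07 and 1.77 CPM in its diclofenac wells. These ranges overlap in both batches and the test did not pass (L2FC -0.13 ± 0.28, adjusted p = 0.678). Ptgs2, the inducible cyclooxygenase 2, was under the minimum of a mean of 10 counts and was not tested by either assay. Its WT counts were 13, 3 and 13 reads in the vehicle wells and 26, 33 and 22 reads in the diclofenac wells of batch 1, and 1, 0, 0, 0, 0 and 0 reads in the vehicle wells and 14, 4 and 5 reads in the diclofenac wells of batch 2. Every diclofenac well was above every vehicle well of its batch, at counts too low for more than this description. Of the prostaglandin list, Ptgs1 included, 5 of 9 tested genes rose and 2 fell, against 3 and 3 with culture medium in place of vehicle, with the reductases Cbr1 at L2FC 1.24 ± 0.11 and Ptgr1 at L2FC -1.21 ± 0.22 and the synthase Ptges2 at L2FC 0.54 ± 0.08.

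Targets of the fatty acid receptor PPAR alpha moved in both directions. Of 34 tested genes, 16 rose, 10 fell and 8 did not pass, with a median L2FC of 0.30, which was 0.87 in batch 1 and 0.01 in batch 2. The share called was 76.5%, beside 71.7% of all genes tested. The acyl-CoA thioesterase Acot2 had L2FC 3.92 ± 0.17, and Cyp4a1, a fatty acid omega-hydroxylase, read 1.08, 1.61 and 2.39 CPM in the vehicle wells of batch 1 and 34.6, 80.1 and 62.9 CPM in its diclofenac wells, and 0.832 to 2.32 CPM (median 1.64) in the vehicle wells of batch 2 and 6.96, 11.5 and 15.9 CPM in its diclofenac wells. Its groups were apart in both batches, and the rise was larger in batch 1 (L2FC 5.22 and 2.83, adjusted p of the difference = 0.00294). Acot1 and Pdk4, a kinase that shuts off pyruvate dehydrogenase, were nearly absent from vehicle, with at most 1 and 2 reads in a well, and their pooled levels were 133-fold higher (exact binomial 95% interval 36.4 to 1108) and 40.6-fold higher (21.8 to 85.6). Other members fell, among them Ppara itself, the receptor. The assays called Acaa1a, a peroxisomal thiolase, in opposite directions, at -1.15 by WT and 0.60 by ST (adjusted p = 9.94e-04), so that no direction is given for it. Bile acid synthesis had 0 higher and 8 lower of 10 genes, with Acox2 at L2FC -4.35 ± 0.29 and Akr1c14 at L2FC -2.45 ± 0.19. Cyp7a1, its rate-limiting enzyme, had at most 1 read in any vehicle or diclofenac well and was not tested. In cholesterol synthesis, 5 of 20 rose and 10 fell, and in batch 2 alone 8 rose and 8 fell. Insig1, which holds SREBP in the ER, rose (L2FC 1.95 ± 0.14) while Dhcr7 (L2FC -1.78 ± 0.16) and Nsdhl (L2FC -1.76 ± 0.07) fell. Of 16 genes of fatty acid synthesis, 3 rose and 10 fell, with Thrsp at L2FC -2.91 ± 0.20 and the acyltransferase Gpam at L2FC -1.88 ± 0.19.

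Sugar metabolism showed both directions within single pathways. The liver pyruvate kinase gene Pklr fell, at L2FC -4.48 ± 0.32. Pfkfb3, which makes the activator of phosphofructokinase (L2FC 3.22 ± 0.17), and hexokinase 2, Hk2 (L2FC 2.48 ± 0.25), rose. The whole list had 9 higher and 5 lower of 20 against vehicle and 6 higher and 10 lower against culture medium, and its median L2FC was 0.44 in batch 1 and -0.12 in batch 2. Against vehicle 70% of the list were called, beside 71.7% of all genes tested. In gluconeogenesis 5 rose and 8 fell of 13. Pck1, its committed enzyme, read 3.96, 6.43 and 3.41 CPM in the vehicle wells of batch 1 and 10.8, 21.0 and 9.63 CPM in its diclofenac wells, and 2.60 to 5.82 CPM (median 3.60) in the vehicle wells of batch 2 and 65.5, 45.3 and 47.3 CPM in its diclofenac wells. The increase was in both rats and larger in the second (L2FC 1.67 and 3.76, adjusted p of the difference = 5.78e-05). G6pc rose at a low level (L2FC 2.19 ± 0.45), while Fbp1 (L2FC -2.15 ± 0.13) and the glucose 6-phosphate carrier Slc37a4 (L2FC -2.51 ± 0.17) fell.

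Antioxidant genes of NRF2 were evenly split, with 9 higher and 9 lower of 27 and a median of 0.04. Their share called, 66.7%, was near the 71.7% of all genes tested, which were split evenly too (36.0% higher and 35.8% lower). Hmox1, heme oxygenase 1, read 162, 152 and 184 CPM in the vehicle wells of batch 1 and 576, 608 and 726 CPM in its diclofenac wells, and 262 to 661 CPM (median 313) in the vehicle wells of batch 2 and 1050.5, 1134 and 1237 CPM in its diclofenac wells (L2FC 1.71 ± 0.26, adjusted p = 1.73e-09). The vehicle wells of batch 2 were spread widely, and against culture medium in place of vehicle Hmox1 had L2FC 0.53 (adjusted p = 0.0597). Ftl1, ferritin light chain, rose (L2FC 1.55 ± 0.12), whereas Gclc, which starts glutathione synthesis (L2FC -1.85 ± 0.14), and Nfe2l2, the gene of NRF2 (L2FC -1.53 ± 0.15), fell. The pattern TGACNNNGC of the antioxidant response element lay in 7 of 22 promoters of the list (31.8%), in 8 of 23 of the integrated stress response (34.8%) and in 12.1% of all promoters, on either strand. In the promoter of Slc7a1 it lay apart from TGATGNAAN, and no other gene of these lists held both. Of 17 glutathione S-transferases 4 rose and 10 fell, with Gstm3 at L2FC -5.95 ± 0.29, Gstm2 at L2FC -4.49 ± 0.14, Mgst2 at L2FC -1.76 ± 0.13 and Gstm4 at L2FC -1.68 ± 0.18. Of 5 tested metallothioneins and metal carriers 3 rose and 2 fell. Mt1, a metal-binding metallothionein, read 81.4, 95.5 and 79.8 CPM in the vehicle wells of batch 1 and 3259, 2921 and 2980.2 CPM in its diclofenac wells, and 235 to 473 CPM (median 384) in the vehicle wells of batch 2 and 4484, 5306 and 6545 CPM in its diclofenac wells. Its level in vehicle differed between the rats, and all diclofenac wells were above both (L2FC 4.48 ± 0.39, adjusted p = 1.32e-21). Mt2A rose as well (L2FC 3.49 ± 0.32), and the metal carriers Slc30a10 (L2FC -2.93 ± 0.19) and Slc39a14 (L2FC -1.42 ± 0.10) fell.

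Chemokines and NF-kB targets were mostly lower. Of 19 tested genes, 2 rose, 15 fell and 2 did not pass, with a median L2FC of -1.53. Ccl20 (L2FC -4.40 ± 0.56), Ccl2 (L2FC -4.18 ± 0.52), Cxcl2 (L2FC -2.47 ± 0.24) and Cxcl9 (L2FC -2.45 ± 0.24) fell, and Cxcl10 and Rela rose (1.92 and 0.32), Cxcl10 in batch 2 only (2.92, against -0.30 in batch 1, adjusted p = 0.248). Among 25 immediate early genes 7 rose and 13 fell, Egr1 at L2FC -2.35 ± 0.22, Egr2 at L2FC -3.08 ± 0.25 and Nr4a2 at L2FC 3.07 ± 0.28. Of 27 cell cycle genes 5 rose and 13 fell, led by the cyclin Ccnd1 (L2FC -3.29 ± 0.29), Top2a (L2FC -3.19 ± 0.48), Aurkb (L2FC -2.58 ± 0.33) and Mcm5 (L2FC -1.81 ± 0.34). Matrix and cytoskeleton genes were lower in 25 of 32 cases and higher in 2. Tropomyosin 1, Tpm1, went from 700.2 ± 15.6 to 34.1 ± 1.49 CPM (SD, n = 3 and 3) in batch 1 and from 622 ± 57.2 to 53 ± 10.3 CPM (SD, n = 6 and 3) in batch 2. Tagln (L2FC -3.89 ± 0.31), Anxa1 (L2FC -2.97 ± 0.28) and the hepatocyte keratin Krt8 (L2FC -2.76 ± 0.14) fell with it. Of 11 tested genes on the list of Kupffer cell and leukocyte markers, 2 rose and 8 fell. Cd68 (L2FC 0.76 ± 0.22) and Cd14 (L2FC 0.68 ± 0.15) rose, though neither passed against culture medium (0.18, adjusted p = 0.44, and -0.09, adjusted p = 0.585) and Cd14 did not pass in batch 2 by itself (0.06, adjusted p = 0.775). Vsig4 (L2FC -2.43 ± 0.33), Cd163 (L2FC -2.11 ± 0.27) and Cd74 (L2FC -1.83 ± 0.22) were among those that fell. Their part in the fall of the chemokines was not tested. Clock genes were split, with Nfil3 at L2FC 2.08 ± 0.12, Nr1d2 at L2FC 1.99 ± 0.23 and Npas2 at L2FC -1.94 ± 0.19.

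The largest increases of all tested genes that held in both batches at 10 CPM or more were, besides Ddit3, Mt1, Cyp4a1, Acot2 and Abcb4, those of Ipcef1, Shc4, Ank2, LOC103694875, Sema3e, Tspan13 and Slc2a13. Ipcef1 read 0.240, 0 and 0.171 CPM in the vehicle wells of batch 1 and 52.8, 41.8 and 47.7 CPM in its diclofenac wells, and 0 to 0.428 CPM (median 0.217) in the vehicle wells of batch 2 and 30.8, 35.2 and 41.0 CPM in its diclofenac wells. It was close to 0 in vehicle, with a pooled level 209-fold lower than in diclofenac (exact binomial 95% interval 119 to 406, counting error only). Ank2, ankyrin B, read 0.601, 0.536 and 0.853 CPM in the vehicle wells of batch 1 and 115, 63.4 and 79.6 CPM in its diclofenac wells, and 0.134 to 0.713 CPM (median 0.384) in the vehicle wells of batch 2 and 36.7, 49.0 and 52.8 CPM in its diclofenac wells. Its groups were widely apart (L2FC 6.88 ± 0.33), as were those of the adaptor Shc4 (L2FC 7.25 ± 0.41), LOC103694875 (L2FC 6.33 ± 0.35), the guidance factor Sema3e (L2FC 4.75 ± 0.24), the tetraspanin Tspan13 (L2FC 4.37 ± 0.22) and the inositol carrier Slc2a13 (L2FC 3.91 ± 0.23). By the WT assay the largest decrease was that of Vil1, villin, an actin-bundling protein of microvilli. Vil1 counts were 201, 125 and 136 reads in the vehicle wells and 1, 0 and 0 reads in the diclofenac wells of batch 1, and 155, 149, 118, 160, 112 and 116 reads in the vehicle wells and 0, 0 and 1 reads in the diclofenac wells of batch 2. Its pooled level was 451-fold lower (exact binomial 95% interval 125 to 3730). By the ST assay it fell by less (L2FC -5.70 ± 0.41), and there LOC100910973 had -6.06 ± 0.36. Besides genes already given, the strongest decreases were those of LOC100910973 (L2FC -5.80 ± 0.35), Acnat1 (L2FC -5.77 ± 0.25), Calcb (L2FC -5.19 ± 0.38), Ttll10 (L2FC -5.08 ± 0.47) and Plekhs1 (L2FC -4.87 ± 0.31).

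The response of the 2 rats was compared directly. The change differed between batches for 1032 genes (10.1%), in 493 of which it was higher in batch 2. Within batch 1 alone 5920 genes passed and within batch 2 alone 6941, 5123 passed in both, and 56 of those had opposite signs. The median L2FC of the integrated stress response was 1.42 and 1.51, and that of coagulation -2.43 and -2.57. Isg15, an interferon-induced ubiquitin-like protein, had the widest difference among genes with a mean of 10 CPM or more. It read 7.09, 114 and 7.33 CPM in the vehicle wells of batch 1 and 8.93, 8.87 and 5.78 CPM in its diclofenac wells, and 6.19 to 17.2 CPM (median 7.01) in the vehicle wells of batch 2 and 222, 50.7 and 25.0 CPM in its diclofenac wells. A single vehicle well of batch 1 was high, and so was the first diclofenac well of batch 2. The L2FC was -2.37 in batch 1 and 3.54 in batch 2 (adjusted p of the difference = 1.66e-06). Without that well, an alternative chosen after seeing the data, batch 1 gave 0.19 (adjusted p = 0.857) and the difference was 3.38 ± 1.03 (adjusted p = 0.0238). Without that first diclofenac well of batch 2, Isg15 had L2FC 0.0042 over both batches in place of 1.38, which no longer passed. Cxcl10, an interferon-induced chemokine, had -0.30 in batch 1 and 2.92 in batch 2 (adjusted p of the difference = 7.01e-07), and its diclofenac wells of batch 2 were highest in the same well. Rsad2, viperin, rose in both batches, from at most 1.25 CPM in any vehicle well to 7.54 to 12.0 CPM in batch 1 and 36.7 to 114 CPM in batch 2, and the difference between batches did not pass (adjusted p = 0.176). Herc6 rose (L2FC 1.83 ± 0.27) and Irf7 (L2FC -2.45 ± 0.52) and Gbp2 (L2FC -2.16 ± 0.25) fell, so that of 20 genes of the list 5 rose and 9 fell.

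Other genes with a mean of 10 CPM or more differed between rats in sign or size. The clock repressor Nr1d1 went down in batch 1 and up in batch 2, with 161, 170.0 and 153 CPM in the vehicle wells of batch 1 and 99.8, 114 and 89.4 CPM in its diclofenac wells, and 32.1 to 46.8 CPM (median 41.2) in the vehicle wells of batch 2 and 420.0, 274 and 229 CPM in its diclofenac wells. The vehicle level of batch 1 was the higher (L2FC -0.62 and 2.96, adjusted p of the difference = 2.32e-33). Gadd45g (-1.78 and 0.70) and the receptor transporter Rtp3 (-2.03 and 0.34) fell in batch 1 and had a positive value in batch 2, where the fit of that batch gave adjusted p = 7.69e-04 and 0.146. Batch and rat cannot be told apart.

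**Figure D4:**
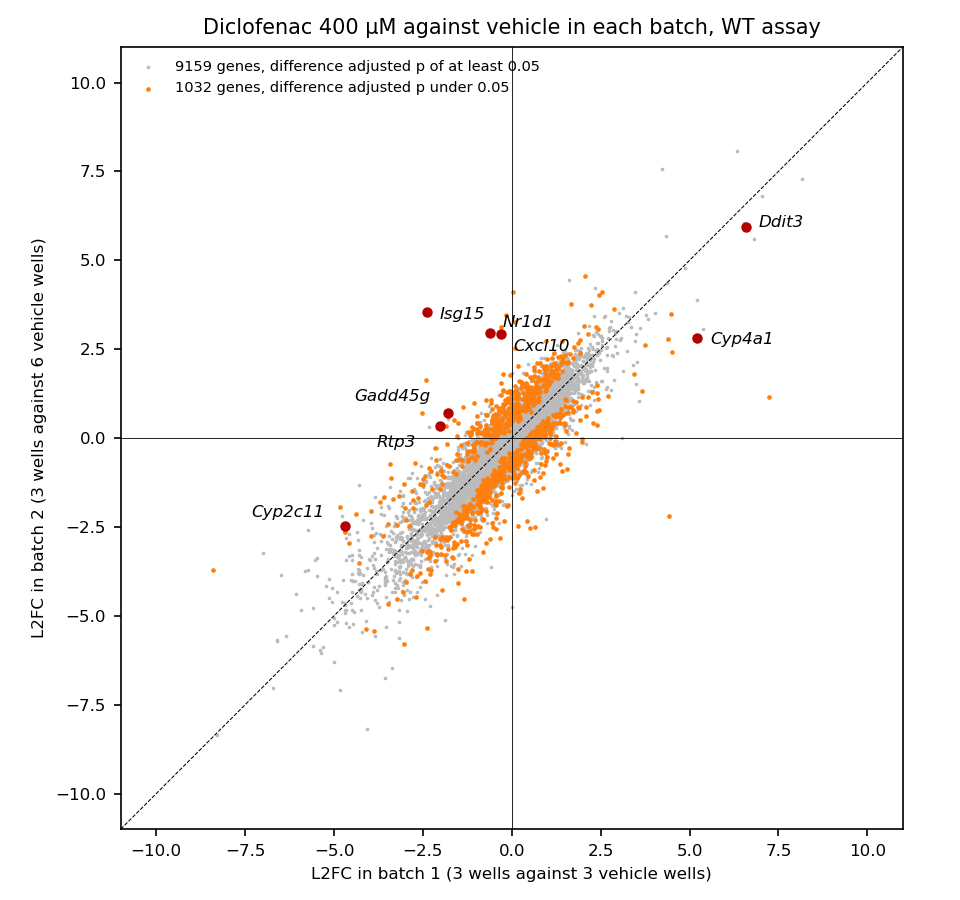
L2FC of diclofenac 400 µM against vehicle in batch 1 (horizontal axis) and batch 2 (vertical axis), WT assay, 1 point per tested gene, with genes whose change differed between batches in another colour. Isg15 and Nr1d1 lie to the left of 0 and above it, and 1032 of 10191 genes differed between the batches.

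At 16 µM, 14 genes (0.137%) passed against vehicle, 12 higher and 2 lower, and 705 had an unadjusted p under 0.05. DESeq2 called 27, and 7 passed with vehicle wells of the same plate only. Ddit3 (0.00), Hspa5 (0.10) and Alb (0.10) were not among them. Of the 14 genes, 11 also passed at 400 µM, and 8 of the 11 were higher at 16 µM and lower at 400 µM. Ces1d, a carboxylesterase, had L2FC 1.41 ± 0.21 at 16 µM (adjusted p = 1.73e-06) and -2.87 at 400 µM. Urad, of urate breakdown, had 0.92 and -3.48, Csad, which makes taurine, 0.86 and -2.20, Acox2 0.73 and -4.35, and the amylase Amy1a 0.69 and -2.91. Pck1 rose at both concentrations (1.12, adjusted p = 0.0246, and 3.00). Contrasted with each other in the fit over all wells, the concentrations differed in 7129 genes (70.0%), 3579 higher and 3550 lower at 400 µM, and a fit of the diclofenac wells only called 6604. Ddit3 differed by 6.30 ± 0.22 and Alb by -2.11 ± 0.11.

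Against vehicle, culture medium and each of the other 27 treatments in direct contrasts, 893 genes (8.76%) differed at 400 µM diclofenac with the same sign throughout, 548 higher and 345 lower, and 97 of them by at least 1 on the log2 scale each time. The concentrations of the chemicals are not matched and the contrasts share the diclofenac wells. Acetaminophen, indomethacin, ketoconazole, sulfasalazine, chloramphenicol and WY14643 were on other plates than diclofenac, and the fit has no term for plate. The clearest of these genes by their smallest difference were Ank2, Ipcef1 and Ddit3 among the higher and Il1rn, Depp1, Bcam, Fga and Fgg among the lower. Bcam, an adhesion molecule that binds laminin, had L2FC -4.36 ± 0.22 against vehicle, and Depp1, a stress-regulated gene, L2FC -3.34 ± 0.25. The other anti-inflammatory and analgesic drugs of the series are given side by side without comparison, since their concentrations differ and they share vehicle. For Ddit3 the L2FC was 6.30 with diclofenac 400 µM, 3.90 with indomethacin 300 µM, 3.34 with naproxen 2000 µM and 2.58 with acetaminophen 10000 µM. For Trib3 these were 2.66, 2.17, 2.32 and 0.30, and for Hspa5 2.69, 2.74, 0.76 and 2.02. For Alb they were -2.01, -0.10, -0.68 and 0.15, and for Fga -3.84, 0.38, -0.40 and -1.10.

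**Figure D5:**
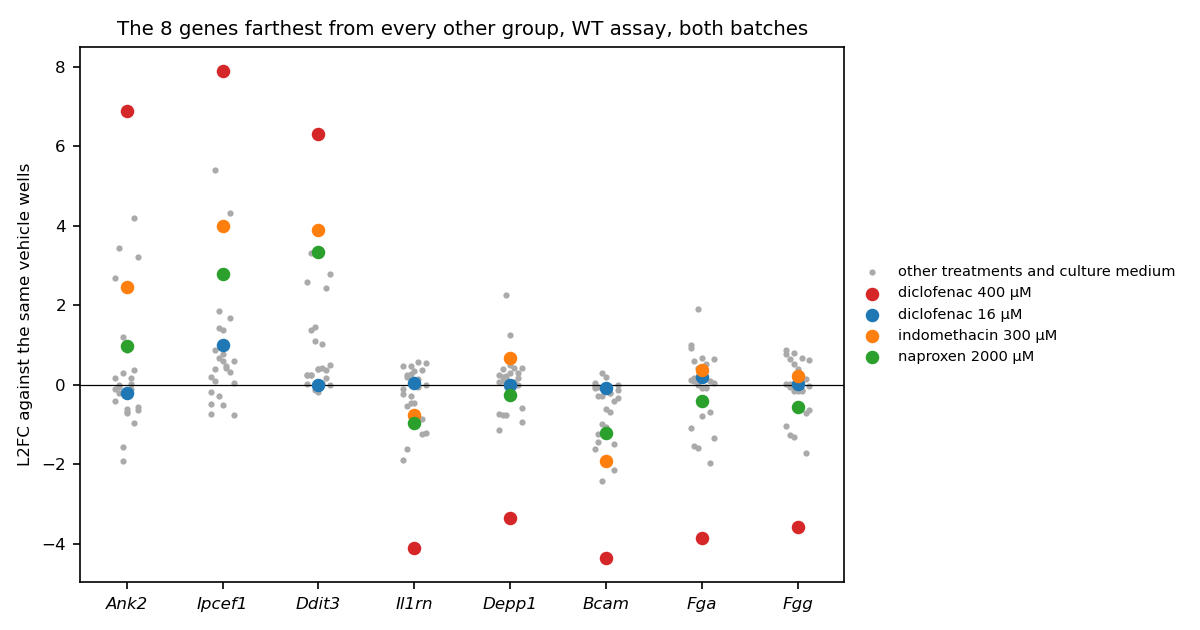
L2FC against vehicle in the WT assay of named genes in diclofenac 400 µM and in the other treatments of the series, 1 point per treatment, with diclofenac 400 µM in its own colour. Diclofenac 400 µM is the highest point for Ddit3 (6.30) and the lowest for Fga (-3.84).

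The ST assay, run on lysate of the same wells, gave 1404 of 1760 genes past the threshold (79.8%), 687 higher and 717 lower, at 583036 to 751200 reads per diclofenac well in batch 1 and 1113365 to 1511282 in batch 2, beside 984283 to 1643796 over the vehicle wells. The lower depth of batch 1 limits its low genes. Of 1603 genes tested by both assays, 1146 passed in both, and 1141 of these had the same sign. Pearson's r of the L2FC over the 1603 genes was 0.982, a description across genes that share wells and are not independent replicates. By ST, Ddit3 had 6.58 ± 0.19, Trib3 2.97 ± 0.17, Hspa5 3.15 ± 0.32, Alb -2.17 ± 0.13, Fga -3.56 ± 0.23 and Cyp2c11 -3.63 ± 0.38. In the ST assay 18 of 23 genes of the integrated stress response were higher, and 19 of 20 of coagulation, 16 of 16 of amino acid breakdown and 15 of 15 of complement were lower. Other lists did not match in this way. Targets of CAR and PXR had 4 higher and 3 lower of 11 by ST, against 2 and 5 of 10 by WT. NRF2 genes had 11 and 6 of 22, against 9 and 9 of 27. Markers of stellate cells, endothelium and cholangiocytes had 1 and 0 of 3, against 0 and 5 of 5. The number of members tested differed between the assays.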

How the data were processed

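Hepatocytes of 1 male Wistar rat per batch were exposed for 24 h, and their lysate was read by the WT assay (22253 probes) and by the ST assay (2654 probes). Per the labels and the study's methods, the authors aligned the reads with STAR 2.5.3a to the rat genome rn6, a build and version also named in the submitters' processing notes, and deposited the raw counts of each probe in each well, not normalized, separately for the assays. Chemical, concentration, batch, plate and well came from the labels. In the deposited tables wells are rows and probes are columns, and every row was mapped to its sample.

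Where several probes carried a symbol their counts were summed, which gave 20946 genes for WT and 2604 for ST. Genes that averaged 10 or more counts across the wells of an assay were fitted with edgeR 4.0.16 in R 4.3.3 (quasi-likelihood test, TMM) over all its wells, with batch as a term, and p were adjusted by Benjamini-Hochberg with a threshold of 0.05. CPM use the TMM-scaled library sizes. The SE is that of the contrast, from its F statistic. The package data.table (1.17.8) read the files. The difference between batches was tested in a fit with a group for each treatment and batch. Where one group had at most 3 reads in every well, the ratio of pooled CPM is given with an exact binomial interval, which covers counting error only. Reads are not molecules, and depth limits which low genes could be tested. Within a batch p measure the spread between wells of 1 rat. The fitting code was also run on simulated counts in which a small set of genes was changed by a known fold. Most genes differed in the data, so that run does not test the scaling at this extent of change.

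Of 1026 genes on 41 lists written from textbook knowledge, 883 were in the WT table and 757 were tested. The wells, the lists and the genes described were chosen with earlier results of these data known. Genes are named by rule: the 12 largest increases and 12 largest decreases that passed in both batches at 10 CPM or more, up to 4 per list, drug-related genes chosen by name, and the largest for the lower concentration, the batch difference and the contrasts with other groups. Members named because they went against their list, or to complete a family, were chosen after their values were seen, and 1 predicted gene and some genes that the rule picks are not reported here. Alternatives were DESeq2 1.42.0, RLE factors or total counts only, no filter, a minimum fold, fits of fewer wells, vehicle of the same plate, culture medium as control, single batches, single probes, thinned depth and each well left out in turn. Promoters came from the RefSeq table for GRCr8, matched by symbol. No coordinates of the deposited build were used.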

Additional observations from a re-analysis of the deposited data

Results flagged for a closer look

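Among the 6 vehicle wells of batch 2, the level of a named gene in 1 well lay apart from the other wells for 13 of 211 genes, where chance gives about 1 in 20. The well was the highest for Abcc4 at 4.49 CPM (replicate 3), Acot1 at 0.167 CPM (replicate 6), Cdkn1a at 11 CPM (replicate 5), Creld2 at 84.8 CPM (replicate 1), Depp1 at 367 CPM (replicate 3), Gstm3 at 65.4 CPM (replicate 6), Isg15 at 17.2 CPM (replicate 3), Slc10a1 at 3.33 CPM (replicate 3) and Slc7a1 at 81.4 CPM (replicate 6). It was the lowest for Apoa1 at 9422 CPM (replicate 2), Gdf15 at 50.8 CPM (replicate 5), Hspb1 at 24.7 CPM (replicate 5) and Mdm2 at 59.4 CPM (replicate 6). Acot1 had 1 read in that well and 0 in the others. Of these 6 vehicle wells, replicates 1 to 3 were on plate 2 and replicates 4 to 6 on plate 3, which the check did not separate.

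For 44 named genes the L2FC differed between batches by edgeR's test of the difference. As batch 2 minus batch 1, the difference was positive for Isg15 5.92, Nr1d1 3.60, Cxcl10 3.24, Gadd45g 2.5, Rtp3 2.39, Cyp2c11 2.25, Pck1 2.11, Egr1 1.96, Nr1d2 1.78, C4bpb 1.66, Atf3 1.15, Plaur 1.12, Thrsp 1.09, Chac1 0.92, Nhp2 0.89, Gdf15 0.87, Tpm1 0.81, Rrp12 0.79, Mdm2 0.72 and Hspa9 0.41. It was negative for Cyp4a1 -2.38, Gpam -1.57, Nr1i3 -1.46, Ppara -1.38, Bhmt -1.26, Depp1 -1.20, Cd14 -1.16, Abcc3 -1.11, Pfkfb3 -1.11, Slc22a5 -1.09, Hspb1 -1.09, Dmgdh -1.04, Gpnmb -0.99, Bnip3 -0.97, Rbp4 -0.97, Acot2 -0.96, Ptgr1 -0.88, Ugt2a3 -0.82, Nr5a2 -0.81, Cyp2u1 -0.76, Ddit4 -0.72, Ddit3 -0.62, Acaa1a -0.54 and Ndufs8 -0.44. For Isg15 it rests in part on a single vehicle well of batch 1, as given with its values, and without that well it was 3.38. The batches differ in rat, library preparation and sequencing, which cannot be told apart.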

How the results depend on the processing

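The number of genes past the threshold in the WT assay stayed within 1.5 times of 7310 under DESeq2 (7342), RLE factors (7300), total counts (7412), no filter (8544), single probes (7655), culture medium as control (7332), same-plate vehicle (7016) and a fit of these wells only (7488), and was 7079 to 7282 when 1 well was left out. An added minimum of 1 on the log2 scale left 3093 genes. In the ST assay the count was 1372 to 1398 when 1 well was left out and 804 with that minimum. For 16 µM, 14 became 7 with vehicle of the same plate and 27 with DESeq2, and the 893 genes apart from every other group became 97 with the minimum of 1. Of the differences between batches, 1032 became 1009 at thinned depth, 1138 with vehicle of the same plate and 849 without the vehicle well with high Isg15, chosen after seeing the data.

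Named genes that changed sign were low, near 0 or different between rats. Against culture medium, Ptgs1 had 0.20, Xbp1 -0.33, Cd14 -0.094 and Cyp1b1 -0.55. With total counts Ptgs1 had 0.0043 and Gadd45g 0.13. In batch 1 alone Asns had -0.012, Ptgs1 0.33, Cxcl10 -0.30, Isg15 -2.37, Nr1d1 -0.62 and Plaur -0.034, and in batch 2 alone Gadd45g had 0.70 and Rtp3 0.34. Leaving out 1 well gave Gadd45g -0.64 to 0.18, Xbp1 -0.018 to 0.12 and Isg15 0.0042 to 2.65, of which the lowest of Isg15 was without the first diclofenac well of batch 2. Rtp3 ranged from -1.43 to -0.26 and lost its call without each of 5 diclofenac wells. With vehicle wells of the same plate only, Isg15 (0.93, adjusted p = 0.141), Rtp3 (-0.42, adjusted p = 0.0612) and Phgdh (-0.42, adjusted p = 0.0683) no longer passed. The cause was not tested. No paired analysis was possible because the labels number no replicates. Some list counts changed sides or evened out against culture medium, where glycolysis had 6 higher and 10 lower, NRF2 genes 7 and 11, prostaglandin genes 3 and 3 and clock genes 5 and 5. In single batches, targets of CAR and PXR had 3 and 3 in batch 1 and cholesterol synthesis 8 and 8 in batch 2. NRF2 genes were at 13 higher and 7 lower with total counts.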
